A study of Cavia porcellus with 12 samples.

Results

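The genes described here are those of interleukin-6 (IL-6) signalling through STAT3 and of the hepatic acute-phase response, in the livers of 6 guinea pigs with non-alcoholic steatohepatitis (NASH) and 6 controls. A list of 10 symbols was looked up among the 11896 human orthologue symbols of the deposited expression table, and all 10 were present. Of these, 9 were listed under the plain symbol (*IL6R*, *IL6ST*, *OSMR*, *JAK1*, *JAK2*, *STAT3*, *SOCS3*, *CRP* and *HP*), and *LCN2* was listed only as a numbered copy, *LCN2.2*. The human symbols *HP* and *HPR* stood on the same row of the count table, and the level of that row is given here as *HP*. The animals were Dunkin Hartley guinea pigs that received a chow diet (controls) or a high-fat diet (NASH) for 25 weeks, and all were females, per the methods of the study. The animals of the NASH group had been selected for bridging fibrosis and the controls for the absence of NASH and fibrosis, so that diet, disease and selection cannot be told apart here. mRNA from the left lateral lobe of the liver was sequenced, and each animal gave 1 library. Animals are named below by their numbers in the sample labels.

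IL-6 and its relatives act on cells through receptor pairs that share the signal-transducing chain gp130, the product of *IL6ST*. The cytokine-specific chain is the IL-6 receptor for IL-6 and the oncostatin M receptor for oncostatin M, and kinases bound to these chains, among them JAK1 and JAK2, phosphorylate STAT3, which enters the nucleus and switches on its target genes. Among them are *SOCS3*, whose product blocks gp130 and thereby ends the signal, and in hepatocytes the genes of plasma proteins that rise in the blood during inflammation, the positive acute-phase proteins. The liver is the main source of these proteins, and hepatocytes carry the IL-6 receptor on their surface while many other cells lack it.

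Libraries of controls held 16980274 to 28636467 counts and those of animals with NASH 23704607 to 33091460. Levels are given as CPM, counts relative to the TMM-scaled library size, and TMM factors were 0.801 to 0.873 in controls and 1.12 to 1.24 in NASH, without overlap. Scaled by library size alone, the log2 fold changes of all genes had a median of 0.48 in place of -0.01, so the scaling bears on small changes. All genes were refitted with library size alone, and 911 were then called lower in NASH in place of 3171 (edgeR). Of the genes followed singly under each alternative, this turned the log2 fold changes of *STAT3*, *STAT2*, *STAT5A*, *STAT5B* and *MCL1*. The hepatocyte markers were not followed singly. A count of 0 would have allowed a level of up to 0.215 CPM in control 5, the smallest library after TMM scaling (3 counts, counting error only), which lies well below the levels of the 10 genes. The liver marker *ALB* was at 75116 ± 7891 CPM in controls (SD, n = 6). Gene lengths were not used here, so levels are compared between animals and not between genes.

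Of the 10 genes, 7 differed between NASH and controls (70%; edgeR quasi-likelihood test, Benjamini-Hochberg adjusted p under 0.05 over all 11896 genes), against 54.2% of all genes tested. Of the 7, 4 were higher (*LCN2.2*, *OSMR*, *JAK1* and *JAK2*) and 3 were lower (*CRP*, *IL6R* and *STAT3*) in NASH, where 27.6% of all genes were higher and 26.7% lower. In 4 of the 10 the levels of the groups did not overlap, against 33.7% of all genes; in 2 of them NASH lay above (18.0% of all genes) and in 2 below (15.7%). Their log2 fold changes had a median of 0.29. The pathway thus moved in both directions, within a table in which most genes changed.

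**Figure D1:**
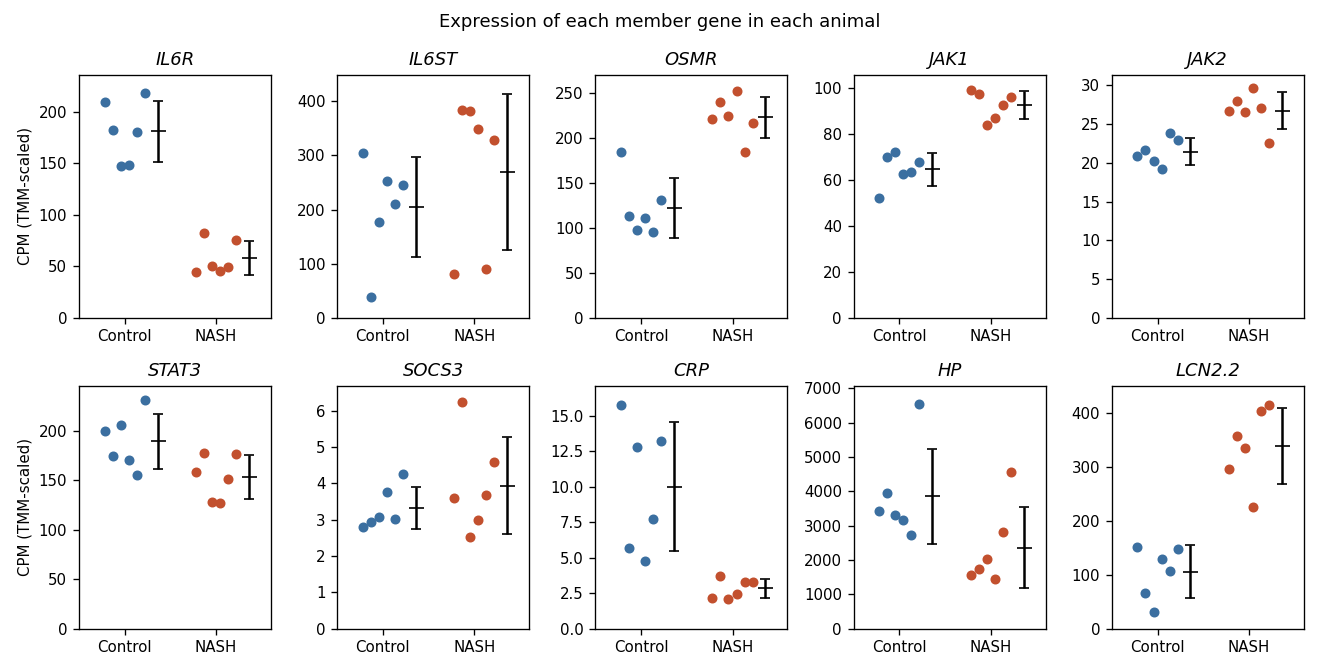
Level of each of the 10 genes in each animal in TMM-scaled CPM, with controls in blue and NASH in red; the horizontal tick and bar beside each group are the mean ± SD of 6 animals. The NASH animals all lie below the controls for *IL6R* and *CRP* and all above them for *JAK1* and *LCN2.2*, and the groups overlap for the other 6 genes.

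The receptor chains moved apart. *IL6R*, which encodes the chain that binds IL-6, was expressed at 148 to 218 CPM in controls (median 182) and at 44.8 to 82 CPM in NASH (median 49.9). Every animal with NASH lay below every control. The mean fell from 181 ± 29.6 to 57.9 ± 16.3 CPM (SD, n = 6 each), a 3.13-fold lower level with a log2 fold change of -1.65 ± 0.18 (SE; edgeR adjusted p = 7.34e-06). *OSMR*, which encodes the signalling chain for oncostatin M, ranged from 95.2 to 185.2 CPM in controls (median 112) and from 184.9 to 252 CPM in NASH (median 223). The groups touched at a single point, control 5 and NASH 41 being almost equal, and the other 5 animals with NASH exceeded every control. The level was 1.82-fold higher, with a log2 fold change of 0.87 ± 0.15 (SE; edgeR adjusted p = 0.000362).

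Because *IL6R* and *OSMR* come from the same library, their ratio within an animal does not depend on how libraries are scaled. The log2 ratio of *OSMR* to *IL6R* was -0.59 ± 0.26 in controls and 1.98 ± 0.39 in NASH (SD, n = 6 each). Its range was -0.92 to -0.18 in controls and 1.52 to 2.46 in NASH, and the means were 2.57 apart. The ratio separated the groups without overlap, as a description of these animals with no test of its own. Its sign says nothing of which receptor was more abundant, since gene lengths were not used.

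*IL6ST*, the gene of the shared chain gp130, did not pass the test and varied more between animals than almost any gene of like level. It was at 38.4 to 304 CPM in controls (median 227) and at 80.7 to 383 CPM in NASH (median 339). A single control (animal 10) stood at the bottom of the controls, the other 5 lying between 177 and 304 CPM. In NASH, animals 2 and 41 were at 80.7 and 89.7 CPM, and the other 4 lay between 329 and 383 CPM, above every control. Its log2 fold change was 0.39 ± 0.49 (SE; edgeR adjusted p = 0.520), and this value ranged from 0.18 to 0.57 when each animal was left out in turn. Within groups the SD of log2 CPM was 1.09, larger than that of 99.3% of genes of like level.

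Control 10 was the lowest control for none of the other 9 genes. The gene whose level followed *IL6ST* most closely over the 12 animals, after centring within each group, was *FOXP1*, which encodes a forkhead transcription factor (Pearson r = 0.97, Spearman rho = 0.82, and r = 0.92 without the 2 farthest animals). *FOXP1* was at 4.69 CPM in control 10 and at 7.49 and 7.53 CPM in NASH 2 and 41. The other animals were at 8.79 to 11 CPM in controls and at 12.4 to 14.5 CPM in NASH. *FOXP1* was singled out after these values were seen, the points share their libraries, and its count row carried a second symbol.

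**Figure D2:**
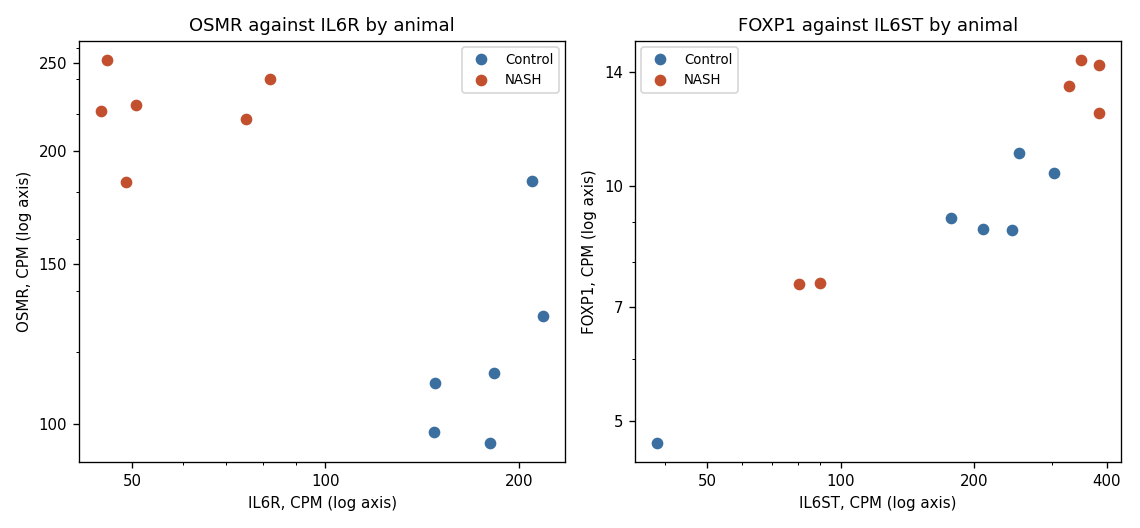
Left, *OSMR* against *IL6R*, and right, *FOXP1* against *IL6ST*, in CPM on log axes, with 1 point for each control (blue) and each animal with NASH (red). The groups separate in the left plot with *IL6R* from 44.8 to 82 CPM in NASH against 148 to 218 CPM in controls, and the 3 animals with low *IL6ST* are the 3 lowest for *FOXP1* in the right plot.

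Both kinases were modestly higher in NASH. *JAK1*, which gp130 needs for signalling, was at 52 to 72.1 CPM in controls (median 65.7) and at 83.9 to 99.5 CPM in NASH (median 94.4), with all animals with NASH above all controls. Its log2 fold change was 0.52 ± 0.08 (SE; edgeR adjusted p = 0.000176). *JAK2*, another kinase that associates with gp130, was at 19.2 to 23.8 CPM in controls (median 21.2) and at 22.6 to 29.6 CPM in NASH (median 26.9). A single animal with NASH, number 65, fell within the range of the controls, and the log2 fold change was 0.32 ± 0.08 (SE; edgeR adjusted p = 0.00370). Both were also higher under each of the other scalings and tools that were run.

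*STAT3*, the transcription factor of the pathway, was lower in NASH by a small margin. It was at 155 to 231 CPM in controls (median 187) and at 127 to 177 CPM in NASH (median 155), and 3 of the 6 animals with NASH lay below the lowest control. The log2 fold change was -0.31 ± 0.12 (SE; edgeR adjusted p = 0.0413). This call was lost when any 1 of 7 of the 12 animals was left out (controls 5, 31 and 56 and NASH 2, 11, 20 and 41), with log2 fold changes of -0.36 to -0.24 over all 12 omissions. With library size alone the value was 0.17 (edgeR adjusted p = 0.197), which reverses its direction although it remained below the median of 0.48 that all genes then had.

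*SOCS3*, the inhibitor that STAT3 induces, did not pass the test and was among the thinnest of the 10 genes, at 39 to 82 counts in controls and 77 to 215 counts in NASH. Its level was 2.8 to 4.26 CPM in controls (median 3.04) and 2.51 to 6.25 CPM in NASH (median 3.64). The groups overlapped, NASH 9 being the highest and NASH 11 the lowest of all 12 animals. The log2 fold change was 0.25 ± 0.21 (SE; edgeR adjusted p = 0.334), and with library size alone it was 0.73 and passed (edgeR adjusted p = 0.00775). The log2 ratio of *SOCS3* to *STAT3* within a library, which no scaling moves, was -5.84 ± 0.24 in controls and -5.33 ± 0.28 in NASH (SD, n = 6 each), and its ranges overlapped.

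Since *SOCS3* is transcribed in response to STAT3, its level was compared with each of the other 9 genes within each group, which gave 18 relations. None passed after adjustment over the 18 (smallest adjusted p = 0.238, exact permutation test over 720 pairings, two-sided), and 3 had an unadjusted p under 0.05, all in NASH. In the 6 animals with NASH, *SOCS3* and *STAT3* had a Pearson r of 0.91 (exact permutation p = 0.0194) and a Spearman rho of 0.89 (exact permutation p = 0.0333), and r was 0.96 without the 2 animals farthest from the median of *SOCS3*. *SOCS3* and *CRP* had an r of 0.84 (exact permutation p = 0.0264) and a rho of 0.94 (exact permutation p = 0.0167), with r at 0.61 without those 2 animals. *SOCS3* and *IL6R* had an r of 0.83 (exact permutation p = 0.0444) and a rho of 0.60 (exact permutation p = 0.242), with r at 0.87 without those 2. In controls *SOCS3* and *STAT3* had an r of 0.42 (exact permutation p = 0.411). Whether these relations differ between the groups was not tested. The smallest p that 6 animals allow is 0.00139 for Pearson r (exact permutation test), and it is larger for rho.

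Of the 3 acute-phase genes among the 10, *CRP* was lower, *LCN2.2* was higher and *HP* did not pass. *CRP* encodes C-reactive protein, the pentraxin that STAT3 induces in human hepatocytes. It was at 4.73 to 15.8 CPM in controls (median 10.3) and at 2.06 to 3.72 CPM in NASH (median 2.87), on 103 to 274 and 63 to 129 counts. Every animal with NASH lay below every control. The level was 3.51-fold lower, with a log2 fold change of -1.81 ± 0.30 (SE; edgeR adjusted p = 0.000262).

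*HP* encodes haptoglobin, which binds free haemoglobin in plasma. It was at 2725 to 6537 CPM in controls (median 3362) and at 1437 to 4549 CPM in NASH (median 1891). The groups overlapped, 4 of the 6 animals with NASH lying below the lowest control, and control 56 and NASH 65 were the highest of their groups. The log2 fold change of -0.71 ± 0.30 (SE) did not pass (edgeR adjusted p = 0.0625, unadjusted 0.0350). Without NASH 65 it was -1.02 and passed (edgeR adjusted p = 0.00439), and without control 56 it was -0.49 (edgeR adjusted p = 0.158). It also passed with DESeq2 (-0.71) and with limma on rlog values (-0.49).

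*LCN2.2* carries the orthologue symbol of lipocalin 2 as a numbered copy, and which guinea pig locus the copy stands for was not settled here. Lipocalin 2 withholds iron from bacteria by binding their siderophores and is made by stressed hepatocytes, by epithelia and by neutrophils. *LCN2.2* was at 31.2 to 152 CPM in controls (median 119) and at 226 to 415 CPM in NASH (median 346). Every animal with NASH lay above every control, with a log2 fold change of 1.68 ± 0.33 (SE; edgeR adjusted p = 0.000835) and a 3.21-fold higher level. It was thus higher in the same livers in which *CRP* was lower.

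**Figure D3:**
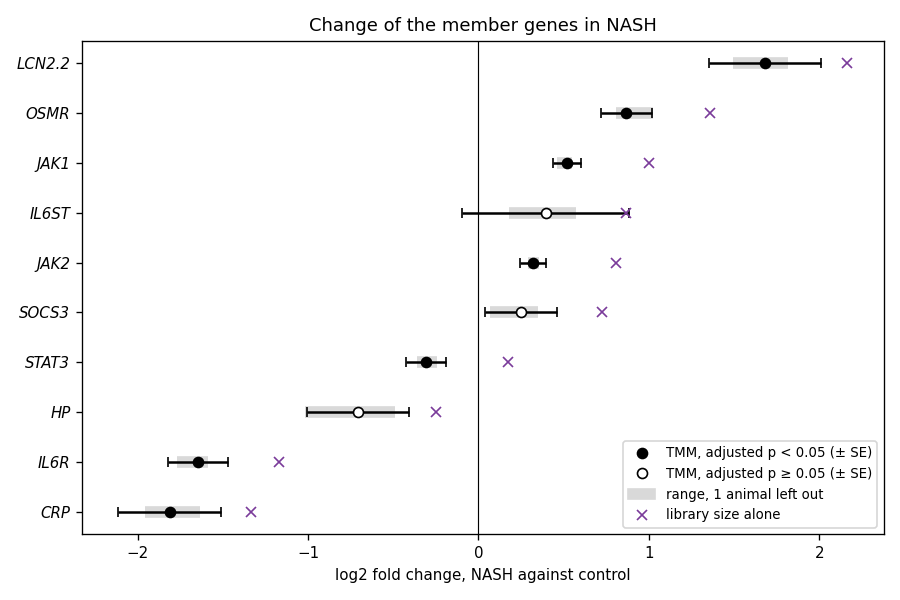
Log2 fold change of NASH against control for the 10 genes, as points with ± SE from edgeR with TMM factors; filled points passed the adjusted p of 0.05, grey bands span the values with 1 animal left out, and crosses give the value with library size alone. *LCN2.2* (1.68) and *CRP* (-1.81) lie at the ends, and the cross of *STAT3* (0.17) lies on the other side of 0 from its point (-0.31).

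The other genes of the pathway were taken from lists of well-known members. Of 10 cytokines that signal through STAT3, 4 were rows of the table, and *IL6*, *IL11*, *OSM*, *CTF1*, *IL27* and *IL22* were not analysed here. *LIF*, the leukaemia inhibitory factor, was at 5.47 to 43.4 CPM in controls (median 16.1) and at 34.2 to 79.4 CPM in NASH (median 52.9), with a log2 fold change of 1.61 ± 0.40 (SE; edgeR adjusted p = 0.00422). *CLCF1*, a cardiotrophin-like cytokine, was at 0 to 0.505 CPM in controls and at 0.979 to 1.7 CPM in NASH, with a log2 fold change of 2.10 ± 0.40 (SE; edgeR adjusted p = 0.000628). The groups overlapped for *LIF* and not for *CLCF1*. *CNTF*, whose row also carried *ZFP91*, had a log2 fold change of 0.01 (edgeR adjusted p = 0.975) and *IL10*, a cytokine outside the gp130 family that also signals through STAT3, one of 0.26 (edgeR adjusted p = 0.373). With library size alone *CNTF* passed at 0.49 (edgeR adjusted p = 0.00188) and *IL10* at 0.74 (edgeR adjusted p = 0.0156), so that all 4 rose.

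Of 9 other receptor chains and shedding proteases of these cytokines, all 9 were rows and 8 rose in NASH (88.9%, where 27.6% of all genes rose), with a list median of 0.70. *IL22RA1*, the chain through which epithelia sense interleukin-22, was at 1.28 to 2.44 CPM in controls and at 3.51 to 11.1 CPM in NASH (log2 fold change 2.19 ± 0.27 SE, edgeR adjusted p = 2.39e-05). *IL10RA*, the interleukin-10 receptor of leukocytes, was at 2.15 to 6.43 CPM in controls and at 8.52 to 13 CPM in NASH (log2 fold change 1.10 ± 0.21 SE, edgeR adjusted p = 0.000719). *LIFR*, which pairs with gp130 for *LIF*, had a median of 119 CPM in controls and of 345 CPM in NASH (log2 fold change 1.26 ± 0.29 SE, edgeR adjusted p = 0.00249). The proteases *ADAM10* and *ADAM17*, which release the IL-6 receptor from the cell surface, had log2 fold changes of 0.70 and 0.50 and also passed. The 9th, *IL11RA*, had a log2 fold change of 0.41 (edgeR adjusted p = 0.0646), which passed at 0.50 without control 5 and at 0.46 without NASH 20. It also passed with upper-quartile factors (0.48), with every row (0.50), with filterByExpr (0.47) and with library size alone (0.90). *IL6R* was the only receptor chain measured here with a negative log2 fold change.

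Of 8 further kinases and factors of JAK-STAT signalling, 3 rose and 1 fell, with a median of 0.08. Without control 5, control 31 or NASH 2, 3 fell, since *STAT5A* and *STAT5B*, which share a count row at a log2 fold change of -0.26, then passed, as they did with DESeq2. With library size alone both were at 0.22, and 5 genes of the list rose and 0 fell. *PTPN11*, the phosphatase that links gp130 to the Ras pathway, was at 98.2 to 133 CPM in controls and at 150 to 167 CPM in NASH (log2 fold change 0.48 ± 0.08 SE, edgeR adjusted p = 0.000254). *STAT2*, a factor of interferon signalling, was at 160 to 188 CPM in controls and at 113 to 139 CPM in NASH (log2 fold change -0.42 ± 0.06 SE, edgeR adjusted p = 0.000143), but was 0.07 with library size alone. Of 11 inhibitors, 4 rose and 2 fell, with a median of 0.21, and only 1 fell without control 5, 10 or 45 or NASH 2 or 9. With upper-quartile factors, every row or filterByExpr 1 fell too, and with library size alone 7 rose and 1 fell. The share that passed, 54.5%, was close to the 54.2% of all genes, and 4 of the 8 kinases and factors passed. *SOCS2*, which restrains growth hormone signalling, fell 2.2-fold, from 8.24 to 13.7 CPM in controls to 2.25 to 6.85 CPM in NASH (log2 fold change -1.14 ± 0.21 SE, edgeR adjusted p = 0.000653). *PTPN1*, a phosphatase of JAK2, was at 15.6 to 19.8 CPM in controls and at 22.6 to 25.6 CPM in NASH (log2 fold change 0.51 ± 0.07 SE, edgeR adjusted p = 7.02e-05).

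Of 13 known STAT3 targets for transcription and survival, 7 rose, 0 fell and 6 did not pass, with a median of 0.996. Of all genes 27.6% rose, and in either direction 53.8% of the list and 54.2% of all genes passed. *MYC*, a growth-promoting factor, was at 1.31 to 4.59 CPM in controls and at 12.6 to 18.4 CPM in NASH (log2 fold change 2.40 ± 0.23 SE, edgeR adjusted p = 3.38e-06). *TIMP1*, an inhibitor of matrix metalloproteinases, was at 14.5 to 46.8 CPM in controls and at 96 to 153 CPM in NASH (log2 fold change 2.19 ± 0.30 SE, edgeR adjusted p = 5.59e-05). *PIM1* and *BCL3* passed as well, at 1.14 and 1.01, without overlap between groups. These genes have other activators besides STAT3, and no measurement here assigns their level to it.

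Of 25 further genes listed by human symbol as positive acute-phase genes, 12 fell, 1 rose and 12 did not pass. Whether each of them responds in the guinea pig was not tested. The list median was -0.56 (-0.08 with library size alone, below the median of all genes). For comparison, 26.7% of all genes fell, and 52.0% of the list passed in either direction against 54.2% of all genes. Without control 31, without NASH 65 or without NASH 41 and 65 together, 17 of the 25 fell. *HAMP*, which encodes the iron hormone hepcidin, was at 219 to 770 CPM in controls and at 20.3 to 142 CPM in NASH (log2 fold change -3.10 ± 0.48 SE, edgeR adjusted p = 0.000167), an 8.54-fold lower level. *C4BPA*, a subunit of the C4b-binding protein, was at 458 to 681 CPM in controls and at 114 to 258 CPM in NASH (log2 fold change -1.57 ± 0.18 SE, edgeR adjusted p = 1.15e-05). The fibrinogen genes *FGA*, *FGB* and *FGG* passed at -0.56, -0.53 and -0.55, but with library size alone were at -0.08, -0.06 and -0.07 and did not. *SAA1*, whose row also carried *SAA2* and *SAA4*, had a log2 fold change of -0.96 ± 0.51 (SE; edgeR adjusted p = 0.133), which passed at -1.19 without control 31 and at -1.43 without NASH 65. These 3 symbols count separately among the 25, which stood on 23 count rows. The 1 gene that rose was *S100A9*, a calgranulin of myeloid cells, at 0 to 0.717 CPM in controls and 0.378 to 1.73 CPM in NASH (log2 fold change 2.03 ± 0.68 SE, edgeR adjusted p = 0.0238), and 2 rose without control 32. With library size alone, 5 of the 25 passed as higher and 5 as lower.

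The negative acute-phase genes, whose products fall in the blood during inflammation, were lower too. Of 12, 11 fell (91.7%, where 26.7% of all genes fell) and 0 rose, with a median of -1.17, and 10 fell with library size alone. *SERPINA6*, which encodes the carrier of cortisol, was at 1249 to 2802 CPM in controls and at 265 to 554 CPM in NASH (log2 fold change -2.52 ± 0.24 SE, edgeR adjusted p = 3.26e-06). *SERPINA7*, which encodes thyroxine-binding globulin, was at 4.09 to 8.17 CPM in controls and at 0.872 to 2.06 CPM in NASH (log2 fold change -2.27 ± 0.23 SE, edgeR adjusted p = 4.86e-06). Positive and negative acute-phase genes, which move in opposite directions during an acute-phase response, thus had medians of the same sign.

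**Figure D4:**
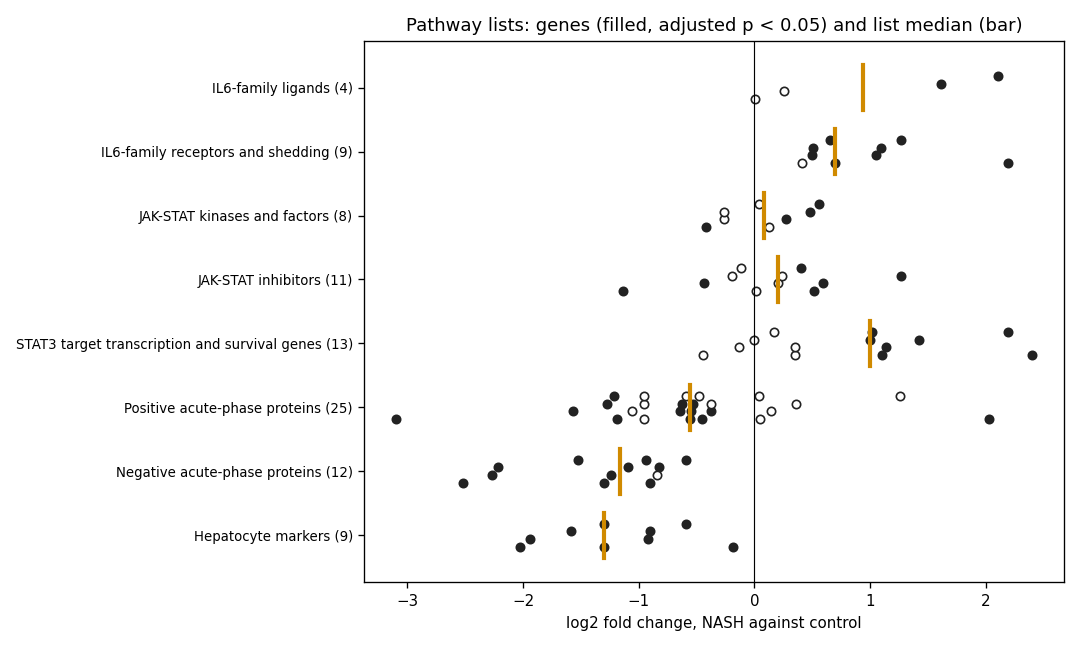
Log2 fold change of NASH against control for each gene of 7 pathway lists and of the hepatocyte markers, with the number of genes found in brackets; filled points passed an adjusted p of 0.05 (edgeR) and bars are list medians. The receptor list (median 0.70) lies to the right of 0, and the negative acute-phase genes (-1.17) and hepatocyte markers (-1.30) lie to the left.

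Markers of several cell types moved in the same samples. All 9 hepatocyte markers found were lower in NASH, and their summed level was 92410 to 122900 CPM in controls and 34770 to 57860 CPM in NASH. *ALB*, which is also 1 of the 12 negative acute-phase genes, made up most of this sum, at 66430 to 85800 CPM in controls and 23970 to 39060 CPM in NASH. The median of their log2 fold changes was -1.30. The log2 fold changes of *IL6R* and *CRP* lay below that median, and those of *STAT3* and *HP* between it and 0. All 4 lay within the range of the single markers, -2.02 (*APOA2*) to -0.19 (*ASGR1*). In bulk tissue, fewer hepatocytes and less RNA of a gene per hepatocyte cannot be told apart. Cholangiocyte markers summed to 93.6 to 142 CPM in controls and 331 to 578 CPM in NASH (5 of 6 higher), and stellate cell and fibroblast markers to 629 to 750 CPM and 1204 to 2449 CPM (7 of 8 higher, 1 lower). The part of these shifts in the changes of the 10 genes was not tested.

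Of 14 neutrophil markers, which bear on *LCN2.2*, 6 were rows of the table. Their sum overlapped between groups, at 134 to 197 CPM in controls and 136 to 154 CPM in NASH. It rested mostly on the row of *CEACAM8*, which carries 16 other symbols. The level of that row cannot be assigned to *CEACAM8* alone, so the sum says little of neutrophils. By gene, *CSF3R*, *S100A9* and *LTF* rose and the row of *CEACAM8* fell. *CSF3R* (1.26) no longer passed without control 10 (1.15) or without NASH 65 (0.90), and *CEACAM8* (-0.53) was at -0.05 with library size alone. Macrophage (1 of 6 higher, 1 lower), endothelial (3 of 7 higher, 1 lower) and T cell markers (1 of 6 higher, 1 lower) were mixed, while 3 of 4 B cell markers and 6 of 6 erythroid markers were higher. The erythroid markers summed to 1.73 to 8.2 CPM in controls, to 41.2 to 44.4 CPM in 4 animals with NASH, and to 374 and 250 CPM in NASH 41 and 65. These 2 animals were also the highest with NASH for *LCN2.2* (404 and 415 CPM) and *HP* (2799 and 4549 CPM) and the lowest for *HAMP* (22.7 and 20.3 CPM). Without both, *LCN2.2* passed at 1.51 (edgeR adjusted p = 0.00637), *HAMP* at -2.69 (edgeR adjusted p = 0.00031) and *HP* at -1.19 (edgeR adjusted p = 0.00193), whereas *CSF3R* (0.72) and *S100A9* (1.65) did not pass. This omission was chosen after seeing the data. No marker found was at 0 in every animal of a group, and the part of these cells in the level of *LCN2.2* was not tested.

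The genes that moved most like 5 of the 10 over the 12 animals, after centring within each group, are given as a description, the points sharing library and depth. For *STAT3* they were *C1RL*, *MAFK* and *ACOX2* (Pearson r = 0.94, 0.89 and 0.87). For *SOCS3* they were *TRIB1*, *MAP3K14* and *LRP1* (r = 0.90, 0.88 and 0.87). For *CRP* they were *VPS13C*, *MPDZ* and *ARFGEF3* (r = 0.89, 0.89 and 0.88). For *HP* they were *IGLC1.3*, *CIDEB* and *SERPINA1* (r = 0.91, 0.90 and 0.89), of which *SERPINA1* is itself a positive acute-phase gene. Without the 2 farthest animals these were 0.68, 0.82 and 0.78, and the row of *IGLC1.3* carried 6 symbols. For *LCN2.2* they were *COL13A1*, *FRYL* and *NUP50* (r = 0.95, 0.92 and 0.92, and 0.81, 0.78 and 0.89 without the 2 farthest animals). *COL13A1* had only 0 to 19 counts in controls, with 0 in control 31, the control lowest for *LCN2.2*. Among the 10 themselves, the highest such correlation was that of *STAT3* with *SOCS3* (r = 0.71), followed by *STAT3* with *CRP* (r = 0.69), and the lowest was that of *OSMR* with *JAK1* (r = -0.64).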

How the data were processed

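Liver mRNA of 6 guinea pigs with NASH and 6 controls was sequenced in stranded single-read libraries. The authors trimmed reads with Trimmomatic 0.38.0, mapped them with Hisat2 2.1.0 to Cavpor3.0 without multimapped reads, assembled loci with StringTie 1.3.6 and deposited raw counts per locus. The authors also deposited log2 values (rlog, DESeq2) for genes with a human orthologue symbol. As the count table has no symbols, its rows were matched to symbols by repeating the rlog transformation. The matched rows held 78.2% to 79.9% of each library. Counts were tested in R 4.3.3 with edgeR 4.0.16 (TMM, glmQLFit robust, glmQLFTest), Benjamini-Hochberg adjusted over 11896 symbols, at a threshold of 0.05. SE is the log2 fold change over the root of F. Correlations used log2 CPM (prior count 2).

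The 10 genes, the lists and the tests were chosen with earlier results of these data known. Named were all 10 genes, every ligand, the up to 2 highest and 2 lowest non-overlapping genes passing the test per pathway list, and for 5 genes the 3 closest by Pearson r; *FOXP1*, *MCL1*, *LIFR*, *ADAM10*, *ADAM17*, *IL11RA*, *STAT5A*, *STAT5B*, *CISH*, *PIM1*, *BCL3*, *SAA1*, *S100A9*, the fibrinogens and single cell markers were chosen after their values were seen. Nothing was paired. Alternatives were RLE and upper-quartile factors, library size alone, DESeq2 1.42.0, limma 3.58.1 on rlog values, all rows with any count, the rows kept by filterByExpr, a stricter threshold (0.01) each animal left out and, chosen after seeing the data, NASH 41 and 65 left out together. edgeR, DESeq2, limma and the permutation test were tested on simulated data. The changes simulated for the first 3 were few and went both ways, so that check does not bear on the scaling between groups. Animals of a group differed by more than counting error in every pair. Figures used Python 3.11.15 and matplotlib 3.10.9.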

Additional observations from a re-analysis of the deposited data

Results flagged for a closer look

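Within the 20 sets of 6 animals formed by the 10 genes in both groups, the level of *HP* in control 56, 6537 CPM, was the only value that passed a test for a single distant value. The gap to the next control was 0.679 of the range of all 6 controls, beyond the critical value of Dixon's test at the 95% level. Chance alone passes that value in about 1 of 20 groups. The other 5 controls lay between 2725 and 3948 CPM. *STAT3* (231 CPM), *IL6R* (218 CPM) and *SOCS3* (4.26 CPM) were also highest among controls in this animal.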

How the results depend on the processing

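Across all alternatives, the log2 fold changes of *IL6R*, *CRP*, *OSMR*, *JAK1*, *JAK2* and *LCN2.2* kept their direction and passed, and that of *IL6ST* kept its direction and did not pass. *STAT3* did not pass with upper-quartile factors (-0.24), with every row (-0.21), with filterByExpr (-0.24) or at a threshold of 0.01 (-0.31), and its values with 1 animal left out ran from -0.36 to -0.24 (adjusted p 0.0215 to 0.0936, edgeR). With library size alone *STAT3* turned to 0.17, *STAT2* turned to 0.065, *STAT5A* and *STAT5B* (1 count row) to 0.223 and *MCL1* to 0.036, and *SOCS3* passed at 0.73. *HP* passed with DESeq2 (-0.71, adjusted p 0.0308) and with limma on rlog values (-0.49, adjusted p 0.0410), ran from -1.02 to -0.49 with 1 animal left out, and passed at -1.19 without NASH 41 and NASH 65, an omission chosen after seeing the data. *CNTF* ran from -0.068 to 0.064 with 1 animal left out, and with library size alone *CNTF* passed at 0.49 and *IL10* at 0.74. Library size alone gave 7600 genes higher and 911 lower against 3279 and 3171, and 40 and 16 of the other pathway genes against 25 and 26. Of all calls 50.8% were higher with TMM, 89.3% with library size alone, 58.2% with upper-quartile factors, 61.7% with every row and 57.5% with filterByExpr. The cause of these shifts was not tested. The 7 calls among the 10 genes became 6 to 8 with 1 animal left out, and no *SOCS3* relation passed adjustment on rlog values or with library size alone (smallest adjusted p 0.187 and 0.1, exact permutation test). With 1 animal left out, 5 animals are too few for that test to bear on stability. No paired analysis was possible because the labels give each animal a number of its own that no animal of the other group shares. Among the 10 genes, depth limits *SOCS3* and *CRP* most, and several of the other genes named, among them *CLCF1*, *S100A9* and *IL10*, had fewer counts still, and labels do not say whether litters or cages were shared.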

Other observations

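*MCL1*, a survival gene and known STAT3 target of the BCL2 family, split the animals with NASH into a high and a low set. It was at 212 to 223 CPM in NASH 9, 11 and 41 and at 29.5, 43.8 and 32.1 CPM in NASH 2, 20 and 65, while the controls lay between 116 and 228 CPM. The log2 fold change was -0.44 ± 0.52 (SE; edgeR adjusted p = 0.490), and 0.04 with library size alone. The low animals were not those with low *IL6ST*, except for NASH 2. This gene was chosen after its values were seen.

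*CISH*, a suppressor of cytokine signalling that STAT5 induces, was higher in NASH with a log2 fold change of 1.26 ± 0.39 (SE; edgeR adjusted p = 0.0147), while *SOCS2*, which STAT5 also induces, was lower in every animal with NASH. *CISH* ranged from 6.45 to 17.4 CPM in controls and from 9.76 to 52.1 CPM in NASH, and the groups overlapped.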
